A study of Mus musculus with 12 samples.

Results

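The genes described here build, cross-link, anchor and remodel actin filaments in the cell cortex, in stress fibres and at sites where cells grip the matrix. They are a list of 44 names taken without a threshold on these arrays, but drawn up with earlier results of these data known, so their directions are described here and are not independent evidence. Each gene was read from probe sets to which the platform annotation gives exactly 1 symbol, and the probe set with the highest mean over the 12 arrays stood for the gene. In this way 42 of the 44 were found among 18201 genes. Of these, 41 lay above 3.03, the median of all deposited log2 values, on 3 arrays or more, and they were tested together with all 11921 genes that did so. Rac2, the Rac GTPase of blood cells, read between 2.15 and 3.09 on the 12 arrays and did not pass. Arpc1b and Actr2, subunits of the Arp2/3 complex, were not reached by this rule and were not analysed here.

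RNA came from glomeruli, the capillary tufts that filter blood in the kidney, of female mice aged 8 to 10 weeks. The mice were of the inbred strains C57BL6J and 129S2SvPAs, and each strain had 3 control samples and 3 samples with anti-GBM glomerulonephritis (anti-GBM GN), 1 Affymetrix array each. In the challenged mice, which had this nephritis, nephrotoxic serum was injected on days 0, 1 and 2, glomeruli were taken on day 4 with sieves of 100 and 45 µm, and antibody against the glomerular basement membrane injures the capillary wall in this model. The labels contradict themselves on the controls: titles and treatment fields call them control, while their descriptions and protocols repeat the nephritis and serum text of the challenged samples. The groups follow titles and treatment fields, what the controls were given is therefore not known, and every difference from control carries that doubt. No mouse is said to carry an altered gene. The labels call the control replicates animals and do not say whether a challenged replicate was 1 animal or a pool. All values are deposited log2 probe set signals, differences are on that scale and carry limma's standard error (SE), and p-values are adjusted over all genes tested, with a call at an adjusted p under 0.05.

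Actin monomers join into filaments, and filaments are bundled by alpha-actinin, filamin and fascin, stiffened by tropomyosin, and pulled by non-muscle myosin. Their ends are held at focal adhesions by vinculin, talin, paxillin and zyxin. In the glomerulus this machinery shapes the foot processes of podocytes and lets mesangial cells pull on the capillary loops, and cells that spread or migrate after injury rebuild it.

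The arrays had medians of 2.99 to 3.06, and arrays of a group correlated at 0.983 or more except challenged 129S2SvPAs replicate 1, which correlated at 0.974 and 0.973 with the other two of its group. Podocyte and endothelial markers were measured in every group, with 6 podocyte markers at a mean of 7.03 to 9.40 per array and 8 endothelial markers at 7.56 to 9.69. The podocyte means were lower in 129S2SvPAs (7.08 to 7.91 in controls and 7.03 to 7.38 in challenged mice) than in C57BL6J (8.75 to 9.40 and 8.36 to 9.32). Endothelial means were 7.56 to 8.92 in 129S2SvPAs controls and 8.73 to 8.95 in challenged 129S2SvPAs mice, with 3 of 8 markers called higher and 1 lower. The same RNA held tubule transcripts, since 10 proximal tubule markers had means of 11.28 to 12.50. In 129S2SvPAs the podocyte markers Podxl and Synpo were called higher after challenge and Nphs1 and Cdkn1c lower, and none of the 6 was called in C57BL6J. Of 11 leukocyte markers, 2 (Itgam and Cd3e) did not pass the filter, and Cd14 alone was called in the responses, higher in both strains. S100a8 was called lower in 129S2SvPAs than in C57BL6J controls (-2.23, SE 0.50). In such bulk RNA, fewer cells of a type and less RNA per cell cannot be told apart.

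Most of these genes were higher in anti-GBM GN than in controls in both strains, and none was lower past the threshold. In C57BL6J 23 of 41 rose, where 4.78% of all genes tested rose and 2.31% fell (7.09% in either direction), and the members had a median difference of 0.76 against -0.03 over all genes. In 129S2SvPAs 27 of 41 rose, where 10.6% of all genes rose and 9.76% fell (20.3% in either direction), with a median of 0.94 against 0.00. The 3 challenged arrays all lay above the 3 control arrays for 32 members in C57BL6J (13.2% of all genes) and for 27 in 129S2SvPAs (16.4%), and all lay below for 1 member, Rdx, in each strain (16.0% and 16.1%). The 8 largest rises were those of Pdlim7, Actn1, Flna, Anxa1, Csrp1, Capg, Tpm4 and Anxa2 in C57BL6J, and of Pdlim7, Anxa2, Actn1, Anxa1, Capg, S100a6, Csrp1 and Rhoc in 129S2SvPAs, while the Arp2/3 subunits moved little. In all, 21 members rose in both strains, Myh10 and Pxn passed in C57BL6J alone, Zyx, Gsn, Tmsb10, Arpc2, Rhob and Cdc42ep3 passed in 129S2SvPAs alone, and 12 passed in neither. Passing in 1 strain alone does not show that the strains differ, and Zyx was also called in C57BL6J with the replicate number as a block (adjusted p = 0.0497 in limma), as was Cdc42ep3 (0.0157). Across the 41 members the 2 responses, which share no arrays, had a Pearson correlation of 0.924 and a Spearman correlation of 0.914, given as a description because genes are not independent.

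**Figure D1:**
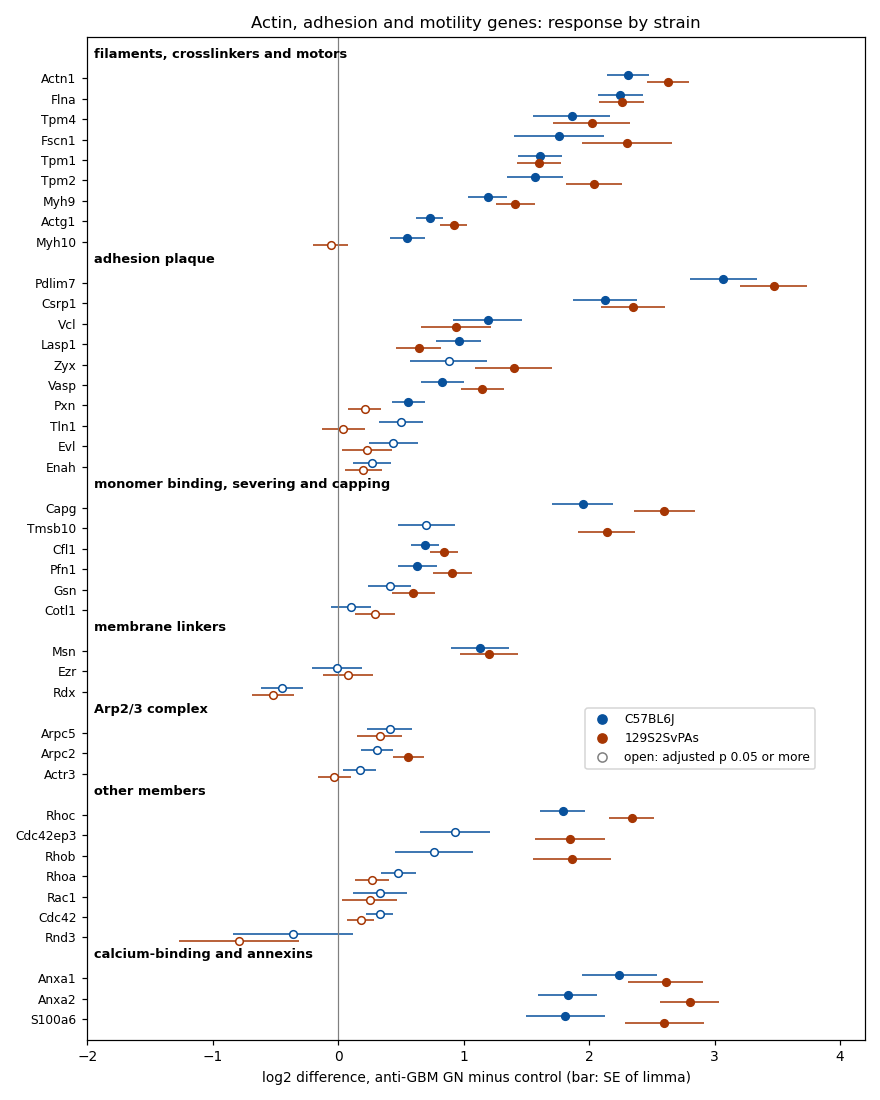
Log2 difference between anti-GBM GN and control for the 41 members tested, in C57BL6J (blue) and 129S2SvPAs (dark orange), grouped by role where stated; bars are the SE of limma and open points have an adjusted p of 0.05 or more. All 3 of the calcium-binding and annexin genes are filled in both strains. Filled filament genes are 9 of 9 in C57BL6J and 8 of 9 in 129S2SvPAs, and filled Arp2/3 genes 0 of 3 and 1 of 3. Over all genes tested 4.78% and 10.6% were called higher, and no test compared the role groups.

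The mean level of the proximal tubule markers moved with the same contrast. Their mean per array was 12.12 to 12.45 in C57BL6J controls and 11.64 to 12.03 in challenged C57BL6J mice, and 12.24 to 12.50 and 11.28 to 11.51 in 129S2SvPAs, so that the groups did not overlap in either strain. Of the 10 markers, 2 (Cyp2e1 and Hpd) were called lower in C57BL6J and 5 in 129S2SvPAs, and none was called higher. Hpd had the largest falls, -2.06 and -4.4, while Slc22a6 (-0.09 and 0.09) and Kap (0.02 and 0.73) were not called. With the mean of the 10 markers as a covariate, 6 members remained called in C57BL6J and 0 in 129S2SvPAs, and 122 and 3 genes were called in all. The median SE of the members was 1.65 and 3.04 times that without the covariate. The median difference of the members was then 0.78 and 1.11, with 40 and 35 of 41 above 0. The level of these markers and the challenge cannot be told apart with these arrays. What the mean says of the amount of tubule RNA was not tested. Means of 6 distal tubule and collecting duct markers were 10.30 to 10.56 and 9.70 to 10.39 in C57BL6J, and 10.97 to 11.12 and 9.87 to 10.30 in 129S2SvPAs. Of these markers Pvalb was called lower in both strains (-1.78 and -3.76). In 129S2SvPAs Calb1 and Slc12a1 were also called lower, while Aqp2 was called higher (1.56). Some of the mesangial and smooth muscle markers bind actin themselves. Their means were 5.70 to 6.29 in C57BL6J controls and 7.19 to 7.47 in challenged mice, and 5.56 to 5.74 and 6.98 to 7.31 in 129S2SvPAs. Of these 8 markers Cnn1 did not pass the filter, and 3 and 4 were called higher (Des, Acta2 and Tagln in both strains). The platelet markers had means of 3.00 to 3.61 and 4.81 to 5.63 in C57BL6J, and 2.83 to 2.86 and 4.09 to 4.55 in 129S2SvPAs. Of these 6 markers Treml1 did not pass the filter, and 3 and 2 were called higher and none lower. Pf4 (4.31 and 4.86) and Ppbp (4.77 and 2.24) were called in both strains, and Gp9 in C57BL6J alone. Itga2b (0.01 and 0.33) and Gp1bb (0.91 and 0.87) were not called. The means of 5 parietal epithelial markers were 7.47 to 7.58 and 7.90 to 8.13 in C57BL6J, and 7.85 to 8.39 and 8.51 to 8.72 in 129S2SvPAs, without overlap, and Cd9 was called higher in both. The part of these cell types in the rises was not tested.

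**Figure D2:**
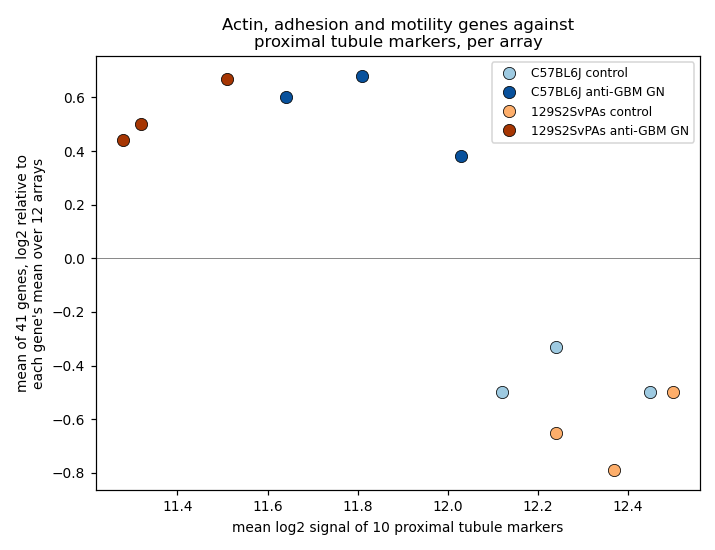
Mean centred log2 level of the 41 members on each of the 12 arrays against the mean log2 level of 10 proximal tubule markers on the same array, by group. In each strain the challenged arrays lie higher on the member axis and lower on the tubule axis than the control arrays.

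Promoter sequence from RefSeq (GRCm38.p6, 250 bases before to 50 after the gene start) was found for 40 of the 44 genes, in 48 windows. It was searched on both strands for the CArG box, the site of serum response factor, a known regulator of actin genes, and for TGAGTCA, the AP-1 site; the motifs cannot overlap. The CArG box was in 3 of 48 member windows (6.25%), in 1.63% of all 32851 windows and in 1.29% of the windows of genes tested. TGAGTCA was in 3 of 48 (6.25%), in 5.2% of all and in 3.8% of those of genes tested. The stretches around the matches are shown, with the motif in capitals, so that the letters present can be set beside the responses of these members. For the CArG box they are from chr11:120348551-120348610 (minus strand), chr14:20929148-20929205 (plus) and chr2:51149177-51149236 (minus), the motif starting 90, 227 and 100 bases before the gene start.
Actg1: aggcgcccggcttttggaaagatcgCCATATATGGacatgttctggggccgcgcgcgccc
Vcl: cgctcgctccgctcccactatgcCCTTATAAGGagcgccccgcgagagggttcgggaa
Rnd3: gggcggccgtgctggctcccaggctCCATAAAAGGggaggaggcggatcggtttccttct
For TGAGTCA they are from chr6:42349682-42349738 (plus), chr9:69453563-69453619 (plus) and chr17:6782781-6782837 (minus, where the site reads TGACTCA), starting 121, 95 and 32 bases before the gene start.
Zyx: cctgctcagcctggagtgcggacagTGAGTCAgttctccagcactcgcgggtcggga
Anxa2: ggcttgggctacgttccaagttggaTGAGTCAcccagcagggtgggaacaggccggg
Ezr: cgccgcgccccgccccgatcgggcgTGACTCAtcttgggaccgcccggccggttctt
Of the 6 genes, Actg1, Vcl and Anxa2 rose in both strains and Zyx in 129S2SvPAs, while Rnd3 and Ezr were not called, so these letters were found in genes of both kinds. Actn1, Flna and Pdlim7, among the largest rises, held neither motif in this window.

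Genes that form, bundle and pull on filaments made up the group with the most rises, 9 of 9 in C57BL6J and 8 of 9 in 129S2SvPAs. Over all genes tested 4.78% and 10.6% rose. Actn1, alpha-actinin 1, which ties filaments into bundles, read 6.88, 7.14 and 6.99 in C57BL6J controls and 9.40, 9.34 and 9.20 in challenged mice. In 129S2SvPAs it read 6.46, 6.67 and 6.45 in controls and 8.78, 9.49 and 9.19 in challenged mice. No challenged array came near a control array, and the rise was 2.31 (SE 0.17) or 4.96-fold (adjusted p = 2.83e-05 in limma) and 2.63 (SE 0.17) or 6.18-fold (adjusted p = 6.39e-06). A second Actn1 probe set, with a lower mean of 5.74, gave 0.47 and 0.43 and was not called in a fit over all probe sets.

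Flna encodes filamin A, which cross-links filaments into a mesh and ties them to integrins. It read 7.06, 7.61 and 7.29 in C57BL6J controls against 9.60, 9.66 and 9.45 after challenge, and 6.98, 6.93 and 6.57 against 9.32, 9.15 and 8.79 in 129S2SvPAs. The rises, 2.25 (SE 0.18, adjusted p = 6.99e-05 in limma) and 2.26 (SE 0.18, adjusted p = 2.67e-05), were alike in size, and the difference between them was 0.01 (SE 0.26).

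The tropomyosins lie along the filament and set which motors and severing proteins can reach it. Tpm4 read 10.13, 10.34 and 9.80 in C57BL6J controls and 12.22, 12.13 and 11.50 in challenged mice, and 9.61, 9.68 and 8.88 and 10.80, 11.76 and 11.66 in 129S2SvPAs. Tpm1 read 7.58, 7.81 and 7.70 and 9.56, 9.15 and 9.22 in C57BL6J, and 7.17, 7.39 and 6.84 and 8.46, 8.86 and 8.87 in 129S2SvPAs. In each strain the challenged and control arrays of both genes were apart. Tpm4 rose by 1.86 (SE 0.31) and 2.02 (SE 0.31), Tpm1 by 1.61 (SE 0.17) and 1.60 (SE 0.17), and Tpm2 by 1.57 (SE 0.22) and 2.04 (SE 0.22). The largest adjusted p among these 6 values was 0.00429 in limma, for Tpm4 in C57BL6J.

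Of the 2 non-muscle myosin heavy chains, Myh9 was called in both strains and Myh10 in C57BL6J alone. No test compared the 2 genes with each other. Myh9, the heavy chain of myosin IIA, read 11.18, 11.47 and 11.47 and 12.56, 12.74 and 12.38 in C57BL6J, and 10.90, 10.97 and 10.55 and 12.26, 12.36 and 12.02 in 129S2SvPAs. It rose by 1.19 (SE 0.15, adjusted p = 0.0011 in limma) and by 1.41 (SE 0.15, adjusted p = 0.000156). Myh10, the heavy chain of myosin IIB, read 8.70, 8.85 and 8.72 and 9.17, 9.44 and 9.31 in C57BL6J, and 9.44, 9.38 and 8.95 and 9.31, 9.16 and 9.11 in 129S2SvPAs. Its arrays were apart only in C57BL6J, where it rose by 0.55 (SE 0.14, adjusted p = 0.0405 in limma), against -0.06 (SE 0.14) in 129S2SvPAs (adjusted p = 0.828). The difference of the responses, -0.61 (SE 0.20), had an adjusted p of 0.268 and was not called. The C57BL6J call of Myh10 was lost when any of the 6 C57BL6J arrays was left out (adjusted p up to 0.166).

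Fascin (Fscn1), which packs filaments into the tight bundles of filopodia, rose by 1.76 (SE 0.36) and 2.30 (SE 0.36), and Actg1, cytoplasmic gamma-actin, rose by 0.73 (SE 0.11) and 0.92 (SE 0.11). The Fscn1 call in C57BL6J was lost without challenged replicate 1 or 2 or control replicate 1 or 3 (adjusted p up to 0.0723). A second Fscn1 probe set, with a mean of 4.33, gave 0.7 in C57BL6J (adjusted p = 0.0441 in the limma fit over all probe sets). In 129S2SvPAs it gave 0.08 and was not called (adjusted p = 0.827). The probe sets of 12 members (Actg1, Myh9, Pxn, Lasp1, Cfl1, Cotl1, Gsn, Tmsb10, Rhoa, Rhoc, Rac1 and Cdc42) carry the suffix by which Affymetrix marks possible detection of related transcripts, so their values may include relatives.

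**Figure D3:**
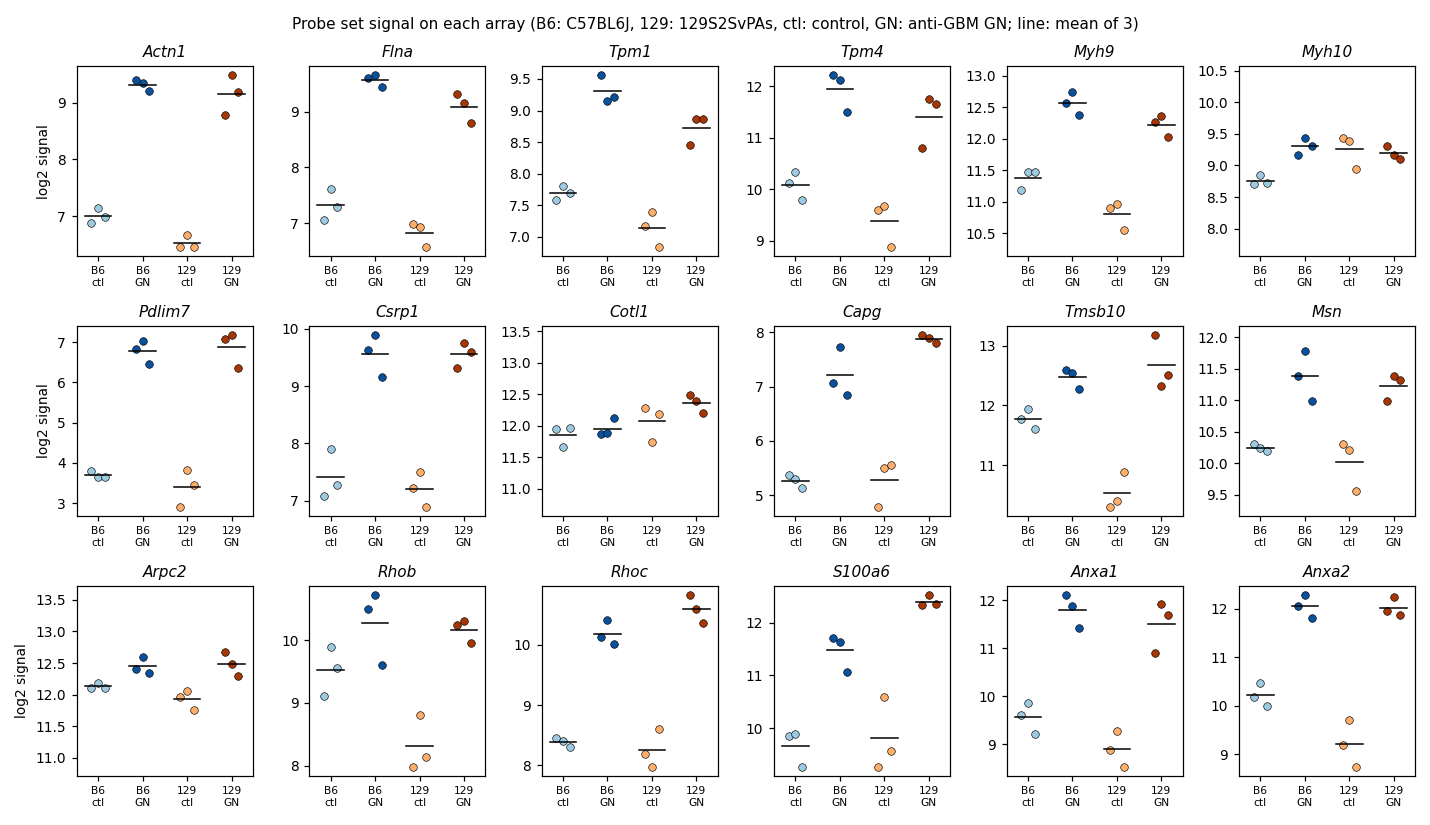
Log2 signal of the 18 members given with their value on every array, with 1 point per array and a bar at the group mean. For Actn1 every challenged array is at or above 8.78 and every control array at or below 7.14.

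Of the 10 adhesion plaque genes 6 rose in each strain, 5 of them in both. Over all genes tested 4.78% rose in C57BL6J and 10.6% in 129S2SvPAs. Pdlim7 (enigma), a PDZ and LIM protein that sits on actin filaments, had the largest rise of all members. It read 3.80, 3.66 and 3.65 in C57BL6J controls and 6.82, 7.04 and 6.45 in challenged mice, and 2.90, 3.83 and 3.46 and 7.08, 7.18 and 6.35 in 129S2SvPAs. Control values lay close to the floor of the arrays and all 6 challenged values well above it, with rises of 3.07 (SE 0.27) or 8.38-fold (adjusted p = 0.000103 in limma) and 3.47 (SE 0.27) or 11.1-fold (adjusted p = 2.10e-05). Near the floor, a difference understates the change. A second Pdlim7 probe set, with a mean of 4.09, gave smaller values in the limma fit over all probe sets. They were 0.86 in C57BL6J (adjusted p = 0.0536, not called) and 1.51 in 129S2SvPAs (adjusted p = 0.00123).

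Csrp1, a LIM protein found on stress fibres, read 7.09, 7.91 and 7.27 and 9.62, 9.89 and 9.15 in C57BL6J, and 7.22, 7.51 and 6.89 and 9.31, 9.75 and 9.60 in 129S2SvPAs. Challenged arrays were above every control array by more than 1 unit, and the rises were 2.13 (SE 0.26, adjusted p = 0.000651 in limma) and 2.35 (SE 0.26, adjusted p = 0.000148).

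The other adhesion plaque genes had smaller values, and no test compared them with Pdlim7 and Csrp1. Vasp, which speeds filament growth at the plaque, rose by 0.83 (SE 0.17) and 1.15 (SE 0.17). Vinculin (Vcl), which strengthens the link from talin to actin and whose promoter held a CArG box, rose by 1.19 (SE 0.28) and 0.94 (SE 0.28), and Lasp1 by 0.96 (SE 0.18) and 0.64 (SE 0.18). Zyxin (Zyx), a sensor of tension on filaments with an AP-1 site in its promoter, passed in 129S2SvPAs at 1.40 (SE 0.31, adjusted p = 0.00858 in limma) with 0.88 (SE 0.31) in C57BL6J (adjusted p = 0.124, or 0.0497 with the replicate number as a block). Paxillin (Pxn), a scaffold of the plaque, passed in C57BL6J at 0.56 (SE 0.13) with 0.21 (SE 0.13) in 129S2SvPAs. For both, the difference of the responses was not called (0.52, SE 0.43, and -0.35, SE 0.18).

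Talin (Tln1), which activates integrins, had 0.50 and 0.04 and was not called, and its other probe sets had -0.57 and 0.07 in C57BL6J and -0.23 and -0.06 in 129S2SvPAs. Enah and Evl, the relatives of Vasp, had 0.27 and 0.44 in C57BL6J and 0.20 and 0.23 in 129S2SvPAs, none called. A dimmer Enah probe set, with a mean of 4.09, was called in 129S2SvPAs at 0.78 (adjusted p = 0.0149 in the limma fit over all probe sets). With array weights Tln1 (adjusted p = 0.045) and Evl (0.55, adjusted p = 0.032) were called in C57BL6J. Several plaque calls depended on single arrays. In C57BL6J, Vcl and Pxn were not called without challenged replicate 1 or 2, without control replicate 1, or without control replicate 3 (Vcl) or 2 (Pxn), with adjusted p up to 0.127 and 0.102. Vasp was not called there without challenged replicate 2 or control replicate 1 or 3 (up to 0.0815). In 129S2SvPAs, Vcl was not called without challenged replicate 2 or 3 or control replicate 2 or 3 (up to 0.128), nor Lasp1 without challenged replicate 1 or 2 or control replicate 2 or 3 (up to 0.0933). With the replicate number as a block within each strain, the C57BL6J values of Vcl and Pxn had adjusted p of 0.0619 and 0.071 in limma.

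Of the genes for proteins that bind actin monomers, cut filaments or cap their ends, 3 of 6 rose in C57BL6J and 5 of 6 in 129S2SvPAs. Over all genes tested 4.78% and 10.6% rose. Capg, which caps the growing end, read 5.38, 5.30 and 5.13 and 7.07, 7.73 and 6.85 in C57BL6J, and 4.78, 5.50 and 5.56 and 7.95, 7.89 and 7.80 in 129S2SvPAs. The groups were apart in both strains, with rises of 1.95 (SE 0.24, adjusted p = 0.000799 in limma) and 2.60 (SE 0.24, adjusted p = 6.41e-05).

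Tmsb10 is a beta-thymosin that holds monomers in reserve. Among the members it had the largest difference between the strains' responses, 1.44 (SE 0.32), which was not called (adjusted p = 0.105 in limma). It read 11.77, 11.94 and 11.60 in C57BL6J controls and 12.60, 12.54 and 12.28 in challenged mice, but 10.30, 10.40 and 10.89 in 129S2SvPAs controls and 13.18, 12.32 and 12.51 in challenged mice. The 129S2SvPAs controls were the lowest arrays, and the challenged mice of both strains overlapped. Tmsb10 rose by 2.14 (SE 0.23) or 4.41-fold in 129S2SvPAs (adjusted p = 0.000134 in limma), with 0.70 (SE 0.23) in C57BL6J (adjusted p = 0.0979). In C57BL6J it was called with the mean of all probe sets, array weights, only the groups compared and the least alike 129S2SvPAs arrays left out (adjusted p from 0.00951 to 0.0309). Its 3 other probe sets that passed the filter gave 0.81, 0.66 and 0.66 in C57BL6J and 2.29, 2.01 and 1.19 in 129S2SvPAs, all called in 129S2SvPAs and 2 of them in C57BL6J in the fit over all probe sets.

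Cofilin (Cfl1), which severs old filaments, rose by 0.69 (SE 0.11) and 0.84 (SE 0.11), and profilin (Pfn1), which feeds monomers to growing ends, by 0.63 (SE 0.15) and 0.91 (SE 0.15). Gelsolin (Gsn), a calcium-dependent severing protein, passed in 129S2SvPAs at 0.60 (SE 0.17, adjusted p = 0.03 in limma), with 0.41 (SE 0.17) in C57BL6J. The Gsn call was lost without challenged replicate 2 or 3 or control replicate 1 or 2 of 129S2SvPAs (adjusted p up to 0.0975), while 3 further Gsn probe sets were called there at 0.91, 0.88 and 1.06. Among the fits that left out 1 C57BL6J array, the Pfn1 call there held only without challenged replicate 3 (adjusted p up to 0.143). Cotl1, coactosin-like protein, read 11.95, 11.66 and 11.97 and 11.87, 11.88 and 12.12 in C57BL6J, and 12.28, 11.75 and 12.19 and 12.49, 12.40 and 12.21 in 129S2SvPAs, and was not called in either (0.10, SE 0.16, and 0.29, SE 0.16). Its control and challenged arrays overlapped in both strains.

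The 3 ERM proteins tie actin to the membrane, and ezrin is abundant in podocytes. Only moesin was called in the fit used throughout, and no test compared the 3 genes with one another. Moesin (Msn) read 10.31, 10.25 and 10.19 and 11.39, 11.78 and 10.98 in C57BL6J, and 10.31, 10.21 and 9.56 and 10.99, 11.38 and 11.32 in 129S2SvPAs. The groups were apart in both strains and Msn rose by 1.13 (SE 0.23, adjusted p = 0.0137 in limma) and 1.20 (SE 0.23, adjusted p = 0.00419). Radixin (Rdx) read lower on all challenged arrays than on the controls of the same strain, at -0.45 (SE 0.17, adjusted p = 0.144) and -0.52 (SE 0.17, adjusted p = 0.0522), and was not called. It was called lower in 129S2SvPAs without challenged replicate 3 (-0.65, adjusted p = 0.0311) or control replicate 2 (-0.62, adjusted p = 0.0426), and also with all arrays under a shift to one median, a filter at the 75th percentile, a trended robust prior or array weights (-0.51 to -0.53, adjusted p from 0.025 to 0.0496). Ezrin (Ezr), whose promoter also held an AP-1 site, had -0.01 (SE 0.20) and 0.08 (SE 0.20). The C57BL6J call of Msn was lost without challenged replicate 2 or control replicate 3 (adjusted p up to 0.0635).

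The Arp2/3 complex starts new branches from the side of a filament. Its subunit Arpc2 read 12.11, 12.19 and 12.10 and 12.40, 12.60 and 12.34 in C57BL6J, and 11.96, 12.05 and 11.76 and 12.67, 12.49 and 12.30 in 129S2SvPAs. The arrays were apart in both strains by small steps, and Arpc2 rose in 129S2SvPAs by 0.56 (SE 0.13, adjusted p = 0.00969 in limma), with 0.31 (SE 0.13) in C57BL6J (adjusted p = 0.182). Arpc5 had 0.41 (SE 0.18) and 0.33 (SE 0.18), and Actr3 had 0.17 (SE 0.13) and -0.03 (SE 0.13), none called, and the control and challenged arrays of both overlapped in 129S2SvPAs. Arpc5 was called there without challenged replicate 1 (0.55, adjusted p = 0.0126), with array weights (0.54, adjusted p = 0.00968) and without the least alike arrays (0.55, adjusted p = 0.0266), and Arpc2 was called in C57BL6J with array weights (0.35, adjusted p = 0.0415). The 129S2SvPAs call of Arpc2 was kept whichever array of that strain was left out. It was lost with only the groups compared (adjusted p = 0.0587 in limma) and without the least alike arrays (0.057).

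Rhoc, a GTPase tied to contraction and invasion, read 8.46, 8.41 and 8.31 and 10.13, 10.42 and 10.01 in C57BL6J, and 8.19, 7.97 and 8.60 and 10.83, 10.60 and 10.36 in 129S2SvPAs. It rose by 1.79 (SE 0.18, adjusted p = 0.000219 in limma) and 2.34 (SE 0.18, adjusted p = 2.10e-05), and its second probe set gave 1.94 and 2.70. Rhob, a short-lived GTPase induced by stress and growth factors, read 9.11, 9.89 and 9.56 and 10.50, 10.72 and 9.61 in C57BL6J, and 7.98, 8.81 and 8.14 and 10.24, 10.30 and 9.96 in 129S2SvPAs. The arrays overlapped in C57BL6J (0.76, SE 0.31, adjusted p = 0.189 in limma, or 1.09 and 0.0415 without challenged replicate 3) and were apart in 129S2SvPAs, where Rhob rose by 1.86 (SE 0.31, adjusted p = 0.002). Cdc42ep3, an effector that binds Cdc42, rose in 129S2SvPAs by 1.85 (SE 0.28), with 0.93 (SE 0.28) in C57BL6J (adjusted p = 0.0781, or 0.0375 with the replicate number as a block within each strain and 0.0166 without challenged replicate 3).

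The GTPases Rhoa, Rac1 and Cdc42, which are the textbook switches for stress fibres, ruffles and filopodia, were not called in either strain in the fit of all 12 arrays. Rhoa had 0.48 (SE 0.14) in C57BL6J (adjusted p = 0.0626 in limma) and 0.27 (SE 0.14) in 129S2SvPAs, Rac1 0.33 (SE 0.22) and 0.25 (SE 0.22), and Cdc42 0.33 (SE 0.11) and 0.18 (SE 0.11). These calls depended on the settings: in C57BL6J Rhoa was called with quantile normalization (adjusted p = 0.0326), array weights (0.013), only the groups compared (0.033) and the least alike 129S2SvPAs arrays left out (0.0179), and Cdc42 with quantile normalization (0.0428) and array weights (0.0266). Rhoa was also called in 129S2SvPAs with array weights (0.37, adjusted p = 0.0287). A second Rac1 probe set was called in 129S2SvPAs, at 0.83 (adjusted p = 0.0222 in the limma fit over all probe sets). Rnd3, which opposes Rhoa and whose promoter also held a CArG box, had -0.36 (SE 0.48) and -0.79 (SE 0.48) with wide overlap of the arrays.

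All 3 calcium-binding genes rose in both strains, where 4.78% of all genes tested rose in C57BL6J and 10.6% in 129S2SvPAs. Anxa1, annexin A1, an anti-inflammatory protein that binds membrane phospholipid, read 9.62, 9.87 and 9.21 and 12.11, 11.88 and 11.42 in C57BL6J, and 8.88, 9.29 and 8.53 and 10.91, 11.93 and 11.70 in 129S2SvPAs. Anxa2, annexin A2, which links actin to membranes, read 10.19, 10.47 and 9.99 and 12.06, 12.28 and 11.80 in C57BL6J, and 9.20, 9.71 and 8.74 and 11.95, 12.23 and 11.87 in 129S2SvPAs. S100a6, a small protein that binds annexins, read 9.85, 9.89 and 9.26 and 11.72, 11.64 and 11.07 in C57BL6J, and 9.26, 10.60 and 9.56 and 12.33, 12.53 and 12.35 in 129S2SvPAs. For each of the 3 every challenged array exceeded every control array of its strain. Anxa1 rose by 2.24 (SE 0.30) and 2.61 (SE 0.30), Anxa2 by 1.83 (SE 0.23) and 2.80 (SE 0.23), and S100a6 by 1.81 (SE 0.32) and 2.60 (SE 0.32), with adjusted p from 3.46e-05 to 0.00612 in limma. The second probe sets of Anxa1 and Anxa2 lay at the floor, with means of 2.95 and 3.01, and were not called.

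The question whether the strains answered differently was tested as the difference of the responses, 129S2SvPAs minus C57BL6J. None of the 41 members was called in limma, where 0.562% of all genes were (0.268% higher and 0.294% lower), and 5 had an unadjusted p under 0.05. The median over the members was 0.19 against 0.03 over all genes, and 26 of 41 had the larger value in 129S2SvPAs. The values farthest from 0 were 1.44 (SE 0.32) for Tmsb10 (adjusted p = 0.105 in limma), 1.10 (SE 0.44) for Rhob (adjusted p = 0.389), 0.97 (SE 0.33) for Anxa2 (adjusted p = 0.3) and 0.92 (SE 0.40) for Cdc42ep3 (adjusted p = 0.433). With array weights, or without challenged 129S2SvPAs replicate 1 together with control replicate 3, Tmsb10 (1.23 and 1.36) and Myh10 (-0.74 and -0.82) were called, 2 members in each fit.

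**Figure D4:**
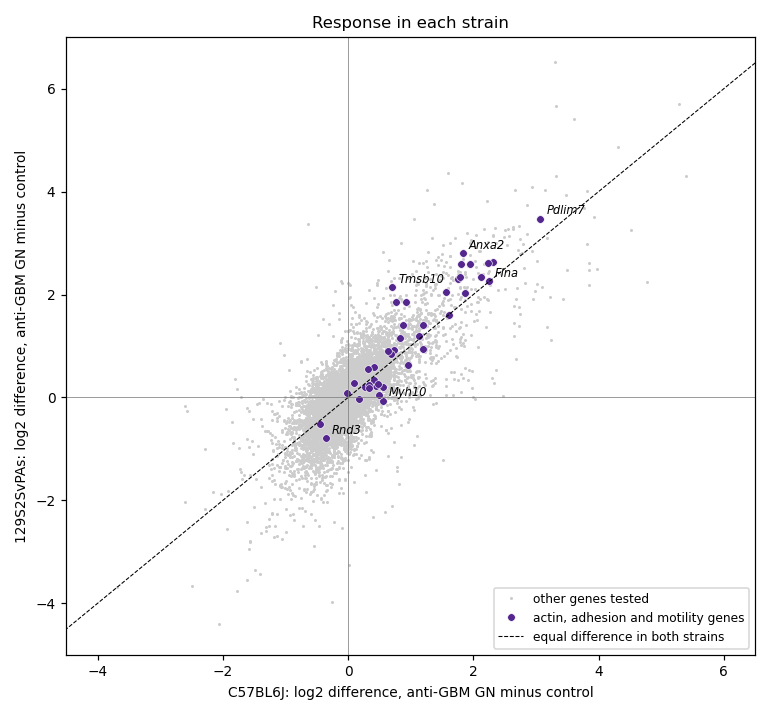
Log2 difference between anti-GBM GN and control in 129S2SvPAs against that in C57BL6J, with the 41 members drawn over all 11921 genes tested; the line marks equal responses. Among the members Pdlim7 lies farthest up at 3.07 and 3.47, Tmsb10 lies above the line and Myh10 below it.

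Among controls, 4 members were lower in 129S2SvPAs than in C57BL6J and none was higher, where 5.11% of all genes were lower and 3.32% higher (8.43% in either direction). They were Tmsb10 at -1.24 (SE 0.23, adjusted p = 0.0068 in limma), Anxa2 at -1.0 (SE 0.23, adjusted p = 0.0248), Rhob at -1.21 (SE 0.31, adjusted p = 0.0371) and Myh9 at -0.57 (SE 0.15, adjusted p = 0.0477). In each of them the 3 control values of 129S2SvPAs given above were all below the 3 of C57BL6J. For 12 members in all the 129S2SvPAs controls were the lower ones on every array (14.3% of all genes), and for 2, Myh10 and Enah, the higher ones (17.3%). Myh10, at 0.50 (SE 0.14), had an adjusted p of 0.053, and Fscn1, at -1.01 (SE 0.36), of 0.117, or 0.0343 with the replicate number as a block. Podocyte marker means in the same controls were 8.75 to 9.40 in C57BL6J and 7.08 to 7.91 in 129S2SvPAs, and their part in these differences was not tested. Only Tmsb10 kept its call whichever control array was left out, and the count fell to 1 without C57BL6J control replicate 2 or 129S2SvPAs control replicate 1, and to 2 without C57BL6J control replicate 3 or 129S2SvPAs control replicate 3 (in the last case with Myh10, higher). It rose to 6 without 129S2SvPAs control replicate 2, where Fscn1 (-1.49, adjusted p = 0.00564) and Tpm1 (-0.69, adjusted p = 0.0468) were called lower as well. Across these fits the adjusted p reached 0.176 for Myh9, 0.155 for Rhob and 0.107 for Anxa2, which also lost its call without C57BL6J control replicate 1.

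Between challenged strains these 4 genes had 0.20 for Tmsb10, -0.03 for Anxa2, -0.11 for Rhob and -0.35 for Myh9. They were picked for their difference in controls, and the change between the comparisons, which is the difference of the responses, was not called for any of them (adjusted p of 0.105, 0.3, 0.389 and 0.809). None of the 41 members was called between challenged strains in limma, where 8.38% of all genes were (3.49% higher and 4.89% lower), and 8 had an unadjusted p under 0.05. With array weights 4 were called, and without challenged C57BL6J replicate 2 Capg was called (0.92, adjusted p = 0.0406). The lowest p-values belonged to Tpm1 (-0.58, SE 0.17, adjusted p = 0.0699), S100a6 (0.93, SE 0.32, adjusted p = 0.111), Capg (0.66, SE 0.24, adjusted p = 0.135), Flna (-0.48, SE 0.18, adjusted p = 0.144) and Cotl1 (0.41, SE 0.16, adjusted p = 0.158). The challenged arrays of the strains did not overlap for any of these 5, with S100a6, Capg and Cotl1 higher in 129S2SvPAs and Tpm1 and Flna lower. These 5 were picked by p in the same comparison, so their separation is no further result. Of the 41 members 4 were separated higher in 129S2SvPAs and 4 lower, where 15.3% and 12.6% of all genes were. The comparisons between strains and the responses share their arrays, so a low control value enters both.

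Of 75 other genes of the same pathways, 66 were tested, and 13 rose in C57BL6J (19.7%, against 4.78% of all genes) and 22 in 129S2SvPAs (33.3%, against 10.6%), with none lower. Their medians were 0.28 and 0.41. Those with the lowest p in C57BL6J were Marcksl1, which binds actin and calmodulin at the membrane (2.07, SE 0.30), Tpm3 (0.68, SE 0.10), the myosin light chain Myl12a (1.06, SE 0.18) and beta-actin, Actb (0.70, SE 0.14). In 129S2SvPAs they were Tpm3 (0.98, SE 0.10), the beta-thymosin Tmsb4x (1.04, SE 0.15), Marcksl1 (1.96, SE 0.30) and the coronin Coro1c (1.18, SE 0.18). Tmsb4x resembled Tmsb10 in the strain comparison of controls, at -0.63 (SE 0.15, adjusted p = 0.0277 in limma), and had 0.39 in C57BL6J (SE 0.15, adjusted p = 0.163).

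Most called genes with more than 1 measured probe set gave the same sign on the others. In C57BL6J the 23 other probe sets of called members that passed the filter comprised 13 called higher and 10 above 0 and not called. In 129S2SvPAs the 31 comprised 21 and 10, and none was below 0 in either strain. Among those with a mean above 6, 12 of 15 and 18 of 19 were called higher. Of the other probe sets of members that were not called, 2 of 31 in C57BL6J (both of Tmsb10) and 2 of 23 in 129S2SvPAs (of Enah and Rac1) were called higher.

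**Figure D5:**
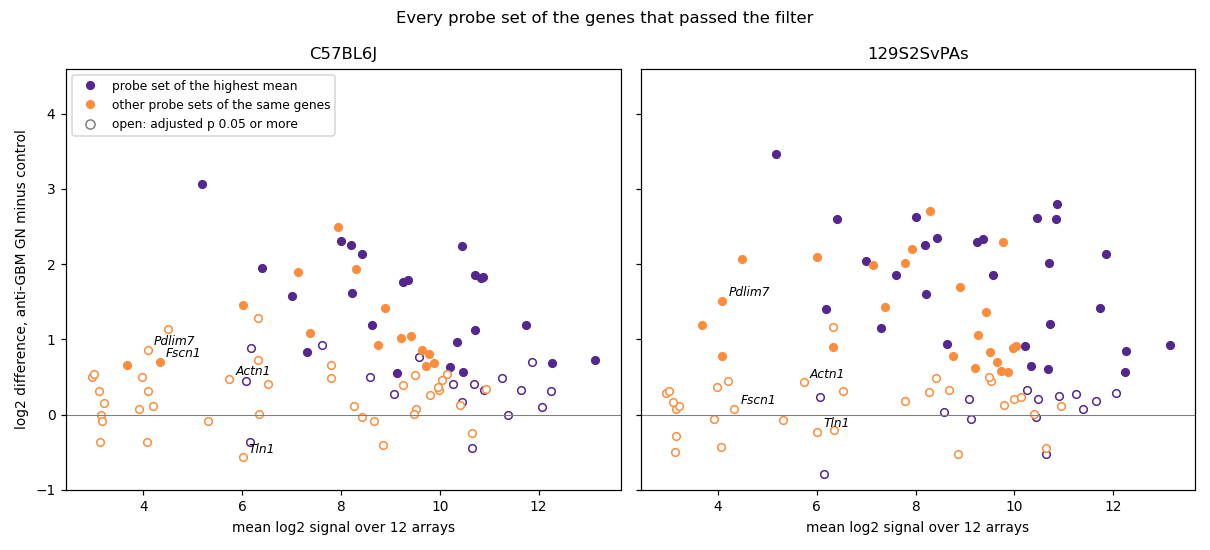
Log2 difference between anti-GBM GN and control of each probe set that passed the filter, against its mean log2 signal over the 12 arrays, in C57BL6J (left) and 129S2SvPAs (right). Purple points are the probe sets used for the genes, orange points are the other probe sets of the same genes, and open points have an adjusted p of 0.05 or more; the second Actn1 probe set is open in both panels, at a mean of 5.74 with 0.47 and 0.43.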

How the data were processed

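The authors deposited log2 probe set signals for 45037 probe sets on 12 arrays, 3 per group. The submitters' processing notes name MAS5 and GCRMA, and which of them made these signals, and in what version, is not given in the sources used here. Their log2 scale was inferred from the range of 1.12 to 15.02. Many values lie at a floor, so that differences from it are understated.

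Probe sets with exactly 1 symbol (34957, while 920 had several and 9160 none) were kept, and the brightest on average stood for its gene. One mean per group was fitted with limma 3.58.1 in R 4.3.3 over all 12 arrays, with empirical Bayes moderation (10.7 degrees of freedom) and Benjamini-Hochberg adjustment within each comparison over 11921 genes. The fit was tested on simulated data. The p-values measure the spread between these arrays. Members, role groups, lists and the rule for named genes were chosen with earlier results of these data known. That rule gives every array's value for the largest changes in each response (8 rises, 5 falls), the 5 lowest p-values in each comparison of strains and the lowest p of each role group, 18 genes in all, and names 4 further pathway genes per response.

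Same-numbered arrays deviated together, with correlations of 0.21, 0.24 and 0.33 for the C57BL6J response and 0.24, 0.28 and 0.24 between control strains, but not for the 129S2SvPAs response (-0.16, 0.18 and 0.00) or between challenged strains (-0.38, 0.12 and -0.23). The pairing comes from replicate numbers in the titles and this check. The count over one role group, drawn as other members, is not reported here. Figures were drawn with matplotlib 3.10.9 in Python 3.11.15.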

Additional observations from a re-analysis of the deposited data

Results flagged for a closer look

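Cd14, a leukocyte marker and no member of the list, differed between the strains in its response. It rose by 1.82 (SE 0.24, adjusted p = 0.00111 in limma) in C57BL6J and by 4.16 (SE 0.24, adjusted p = 4.20e-06) in 129S2SvPAs, and the difference of the responses was 2.34 (SE 0.34, adjusted p = 0.0193). It was the only gene called in that difference among the members and the cell type markers tested. No other leukocyte marker was called in either response. In 129S2SvPAs Lyz2 had -1.36, Tyrobp -1.06, Ptprc -0.83, Csf1r -0.64, Laptm5 -0.18 and Adgre1 -0.16. Cd68 had 0.04 and S100a8 1.02 there.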

How the results depend on the processing

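Called members numbered 23 in the C57BL6J response and 27 in the 129S2SvPAs response, and these counts stayed within 1.5 times of that under every alternative other than the tubule covariate, which left 6 and 0. The other alternatives were quantile normalization, a shift to one median, a stricter filter (75th percentile) or none, averaged or single probe sets, array weights, a robust trended prior, only the groups compared, the replicate block, a minimum difference of 1, and each array left out in turn (16 to 24 and 24 to 27). Between control strains the 4 calls became 1 without a filter, 7 with array weights, 1 with only the groups compared, 2 with the tubule covariate, 2 without the least alike array of each 129S2SvPAs group, and 1 to 6 with an array left out. Between challenged strains the count of 0 became 1 with quantile normalization, 4 with array weights, 1 with the replicate block and 0 to 1 with an array left out. For the difference of the responses the count of 0 became 2 with array weights and 2 without the least alike arrays, and was 0 to 0 with each array left out; only the groups compared is there the same fit and was not run. With the replicate number as a block the counts were 25, 26, 0, 5 and 1 in the order C57BL6J, 129S2SvPAs, difference, control strains and challenged strains, and with the block within each strain, an alternative chosen after seeing the data like the least alike arrays, 22, 25 and 0. The block changed no other call of a member than those of Vcl, Pxn, Cdc42ep3 and Fscn1 given above, Zyx in C57BL6J (adjusted p = 0.0497 in limma), Gsn (0.0526, or 0.0625 within strain) and Vcl (0.0667 within strain) in 129S2SvPAs, and Cdc42ep3 between challenged strains (0.0459). Tln1 in C57BL6J went to 0.00 with the mean of all probe sets, which adds its other 2 probe sets, and Lasp1 in 129S2SvPAs to -0.03 with the tubule covariate; the cause of the second was not tested. Of 54 calls of a member in a comparison, 41 were kept whichever array was left out, and 35 under every other alternative except the covariate.

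Counts over all genes moved by more than 1.5 times as follows. The 845 genes of the C57BL6J response became 2021 with array weights, 1454 without the least alike arrays, 122 with the covariate, 468 with a difference of at least 1 and 407 to 978 with an array left out. The 2424 of the 129S2SvPAs response became 3830, 1415 with only the groups compared, 3 and 1109. The 67 of the difference became 286 with array weights, 146 without the least alike arrays, 33 and 19 with the blocks, 18 with the stricter filter, 4 with the covariate and 15 to 136 with an array left out. The 1005 between control strains became 1601 with array weights, 570 with a difference of at least 1 and 503 to 994 with an array left out, and the 999 between challenged strains 2256, 554 and 612 to 1110, 578 with only the groups compared and 238 with the covariate. Signal near the floor limits Pdlim7 and Rac2, and 3 arrays per group limit all precision.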

Other observations

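Of the 66 further pathway genes tested, 5 were called between control strains (8.43% of all genes) and 4 between challenged strains (8.38%), no larger a share than over all genes. They lie outside the rule for named genes, so that they are given here after their values were seen. Cap1, which recycles actin monomers with cofilin, was higher in 129S2SvPAs than in C57BL6J by 0.87 (SE 0.13, adjusted p = 0.00164 in limma) in controls and by 1.11 (SE 0.13, adjusted p = 0.000326) in challenged mice. Mylk, the myosin light chain kinase, was lower in 129S2SvPAs at -0.76 (SE 0.21, adjusted p = 0.0477) and -1.25 (SE 0.21, adjusted p = 0.00396). Rock1, a kinase that acts below Rhoa, was lower at -0.72 (SE 0.13, adjusted p = 0.00585) and -0.53 (SE 0.13, adjusted p = 0.0275). Coro1a, a coronin of leukocytes, was lower in challenged 129S2SvPAs mice at -2.31 (SE 0.46, adjusted p = 0.0112), where the mean of the 11 leukocyte markers was 5.48 to 6.33 in challenged C57BL6J and 4.78 to 5.12 in challenged 129S2SvPAs mice, and its part was not tested. Rac3, a Rac GTPase, was higher in 129S2SvPAs controls at 1.49 (SE 0.36, adjusted p = 0.0302). Whether sequence differences between the strains under a probe set change its signal was not tested.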
